A study of Rattus norvegicus with 6 samples.

Results

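The 9 genes described here belong to the NF-κB pathway of the rat, namely the subunits Nfkb1, Nfkb2 and Relb, the IκB family proteins Nfkbia, Nfkbiz and Bcl3, and the feedback and target genes Tnfaip3, Birc3 and Tnfaip2. They were taken by symbol from the gene list of the count tables, and all 9 were present among 28282 genes. The samples were ilea of 6 male wild-type Sprague–Dawley rats, aged 6 weeks before 7 days of acclimatization, 3 with a sham laparotomy (CON) and 3 with severe acute pancreatitis (SAP). For SAP, 3% sodium taurocholate was pushed backwards into the pancreatic duct, at 0.1 mL per 100 g of body weight, and the duct was clamped for 5 min. Both groups had water but no food after surgery, and the ileum was taken at 24 h, with fat trimmed off and visible Peyer's patches left out. Each rat gave 1 library of single-nucleus RNA sequencing, and all 6 libraries carry the same batch label.

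NF-κB dimers are held in the cytoplasm by IκB proteins until signals from Toll-like, interleukin-1 or TNF receptors lead to the breakdown of the inhibitor. The freed dimers bind κB motifs in DNA and switch on inflammatory genes together with their own inhibitors, so the pathway limits itself. In the intestine it is known for its part in epithelial survival and in the response to microbes. Nfkb1 and Nfkb2 encode the precursors of p50 and p52, and Relb is the partner of p52 in the non-canonical branch. Nfkbia encodes IκBα, the classical inhibitor, while Nfkbiz (IκBζ) and Bcl3 act in the nucleus on p50 or p52. Tnfaip3 encodes A20, a ubiquitin-editing enzyme that shuts down the signal upstream, Birc3 encodes cIAP2, a ubiquitin ligase of TNF receptor complexes, and Tnfaip2 is a TNF-inducible gene.

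Promoter sequences are shown because NF-κB binds κB motifs and their letters can be read in them. RefSeq promoter windows of build GRCr8, from 250 bases before to 50 bases after the start of each gene, were matched by symbol for 7 members, and Relb and Birc3 were not matched. The κB consensus, searched on both strands, was in the windows of 6 of these 7, against 4.16% of 27457 rat promoters of the same length. The looser letters GGGNNNNNCC, which overlap every consensus match, were in 7 of 7 and in 48.5% of all promoters. The stretches around the consensus matches are given 5′ to 3′ on the strand of the gene, with the match in capitals.
Nfkb1: tctgctctctcgacgtcagtGGGAATTTCC
Nfkb2: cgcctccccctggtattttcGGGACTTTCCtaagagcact
Nfkbia: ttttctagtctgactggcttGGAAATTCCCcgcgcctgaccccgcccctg
Nfkbiz: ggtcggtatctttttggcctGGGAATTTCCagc
Bcl3: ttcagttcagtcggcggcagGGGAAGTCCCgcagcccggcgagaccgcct
Tnfaip3: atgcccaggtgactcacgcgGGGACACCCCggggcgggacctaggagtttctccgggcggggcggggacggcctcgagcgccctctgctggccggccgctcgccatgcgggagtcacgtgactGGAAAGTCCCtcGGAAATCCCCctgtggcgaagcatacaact

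These stretches lie at chr2:226805450-226805479 (minus strand, Nfkb1), chr1:255108334-255108373 (plus strand, Nfkb2), chr6:78597074-78597123 (minus strand, Nfkbia), chr11:58251688-58251720 (plus strand, Nfkbiz), chr1:88613564-88613613 (minus strand, Bcl3) and chr1:15544005-15544169 (minus strand, Tnfaip3). The match lay just upstream of the start in Nfkb2, Nfkbia, Nfkbiz and Bcl3, and at bases 4 to 13 of the gene in Nfkb1. Tnfaip3 held 3 matches, where 0.473% of all promoters held 2 or more. The letters of the consensus were not in the window of Tnfaip2. Among the other pathway genes listed further on, 18 of 63 matched promoters (28.6%) held the consensus. A match describes the letters of a window, and no binding was measured.

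UMIs (unique molecular identifiers, which count captured transcripts) were summed per library over the 40970 of 90461 barcodes with at least 1200 UMIs, at least 500 genes and at most 5% mitochondrial UMIs. Passing nuclei numbered 6260 to 9246 per CON library and 3189 to 7893 per SAP library, with 5549260 to 28771508 UMIs. CON replicate 2 and SAP replicate 1 were deposited with shallower barcodes than the others, some below 1000 UMIs, and 26.2% and 12.2% of their barcodes passed the filter. The median mitochondrial share was 0.125 to 0.700% in CON and 0.387 to 1.84% in SAP libraries. Clusters were named after marker genes, with the ending "-like", and gave 20 classes in 3 compartments (epithelial, immune and stromal). RNA of other cells was visible in immune nuclei. There 8 goblet cell markers summed to 4476 to 6653 CPM (counts scaled to a fixed library total) in CON libraries, against 5953 to 9656 CPM in epithelial nuclei. The source of this RNA and its part in the members' values were not tested.

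Over all passing nuclei, edgeR called none of the 9 members different between SAP and CON, a call being an adjusted p under 0.05 with a log2 fold change of 0.5 or more in size. It called 0% of all 19187 genes. All 9 members had a log2 fold change above 0, with a median of 0.46, where 52.2% of all genes lay above 0 and their median was 0.025. The members were chosen with earlier results of these data known, so their counts beside the shares of all genes are a description only. Nfkbia and Tnfaip3 were higher in every SAP library than in any CON library, as were 4.9% of all genes. Both had an unadjusted p under 0.05, found with a higher SAP level in 3.97% and with a lower one in 4.47% of all genes. Values per library are TMM-normalized CPM, in the order of the replicate numbers, and fold changes are log2 of SAP over CON with their standard error (SE), 3 rats per group. For edgeR the SE was calculated back from the fold change and its unadjusted p, so it adds nothing to that p. In such sums, more nuclei of a class with a high level and more RNA per nucleus cannot be told apart.

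Of the subunits, Nfkb1 measured 113, 119 and 121 CPM in CON and 129, 111 and 148 CPM in SAP. The groups overlapped, with a log2 fold change of 0.14 (SE 0.21, edgeR, adjusted p = 0.905). Nfkb2 measured 18.0, 11.9 and 14.2 CPM in CON and 19.1, 19.6 and 14.3 CPM in SAP. The highest CON and the lowest SAP library crossed, with a log2 fold change of 0.26 (SE 0.30, edgeR, adjusted p = 0.873). Relb measured 118, 127 and 107 CPM in CON and 141, 264 and 92.3 CPM in SAP. SAP replicate 2 was far above the other libraries, while SAP replicate 3 was below every CON library. The log2 fold change of Relb was 0.50 (SE 0.37, edgeR, adjusted p = 0.775), and without SAP replicate 2 it was -0.0042. This library was high in Relb in every compartment, with 258 CPM in epithelial, 271 CPM in immune and 227 CPM in stromal nuclei.

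Among the IκB family, Nfkbia measured 76.2, 76.1 and 64.7 CPM in CON and 148, 146 and 81.6 CPM in SAP. SAP replicates 1 and 2 lay close together and SAP replicate 3 just above the highest CON library (log2 fold change 0.79, SE 0.28, unadjusted p = 0.0214, adjusted p = 0.545, edgeR). Nfkbiz measured 78.6, 82.7 and 100.1 CPM in CON and 101, 139 and 99.2 CPM in SAP. The highest CON library stood just above the lowest SAP library, and the log2 fold change was 0.38 (SE 0.24, edgeR, adjusted p = 0.726). Bcl3 measured 81.4, 141 and 97.4 CPM in CON and 108, 211 and 119 CPM in SAP. Replicate 2 was the highest library of either group, and the log2 fold change was 0.46 (SE 0.33, edgeR, adjusted p = 0.776). SAP was above CON for each replicate number, and with the replicate number as a block the log2 fold change of Bcl3 was 0.43 (SE 0.18, edgeR, adjusted p = 0.405).

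Tnfaip3, the gene of A20, measured 7.92, 7.85 and 11.1 CPM in CON and 15.7, 17.6 and 21.5 CPM in SAP. Every SAP library was above every CON library (log2 fold change 1.03, SE 0.31, unadjusted p = 0.00988, adjusted p = 0.545, edgeR). For Nfkbia and for Tnfaip3 an exact two-sided permutation test gave p = 0.1, the smallest that 3 rats against 3 allow. Birc3 measured 41.2, 45.0 and 57.5 CPM in CON and 52.1, 87.8 and 57.2 CPM in SAP. Only SAP replicate 2 left the CON range, and the log2 fold change was 0.46 (SE 0.28, edgeR, adjusted p = 0.72). Tnfaip2 was sparse, with 10 to 132 UMIs per library, and measured 0.623, 2.05 and 2.56 CPM in CON and 2.13, 0.992 and 5.23 CPM in SAP. Its groups overlapped, with a log2 fold change of 0.71 (SE 0.74, edgeR, adjusted p = 0.856).

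**Figure D1:**
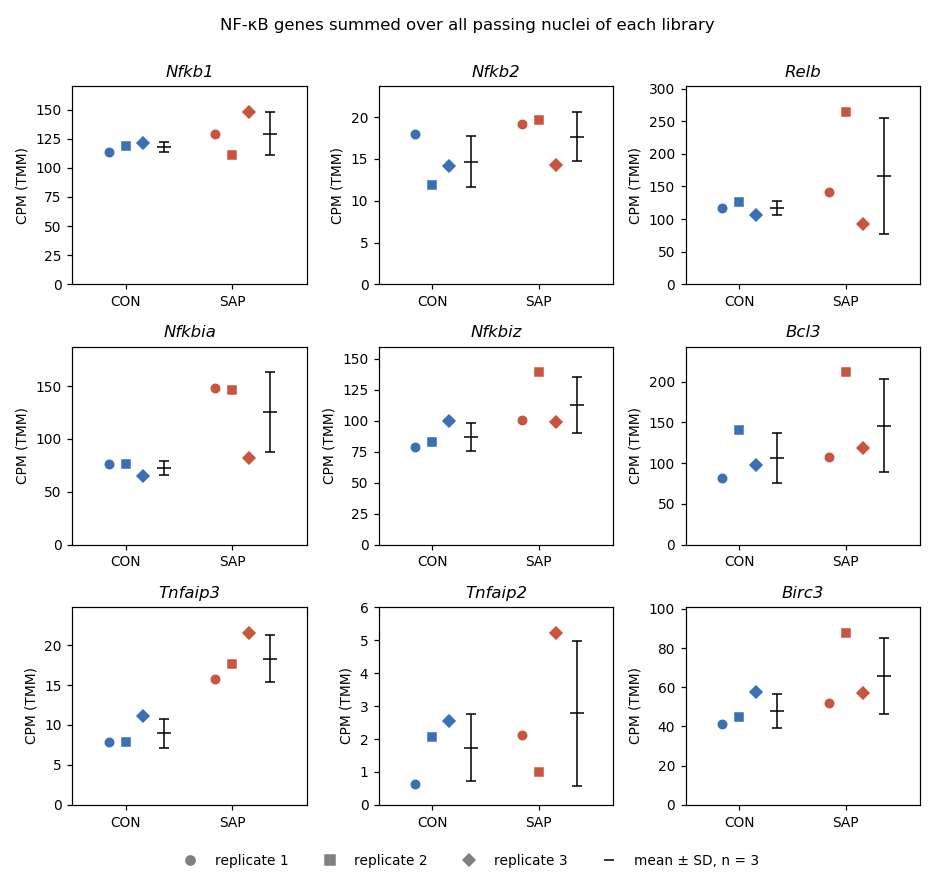
TMM-normalized CPM (vertical axis, from 0) of each NF-κB gene, summed over all passing nuclei, in the 3 CON and 3 SAP libraries, with the mean ± SD (n = 3). Nfkbia and Tnfaip3 are the members whose groups do not overlap, and SAP replicate 2 is the highest library for Nfkb2, Relb, Nfkbiz, Bcl3 and Birc3.

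The mix of nuclei and their quality also differed between the libraries. Enterocyte-like nuclei were 9.58, 10.4 and 12.0% of CON and 24.1, 40.2 and 12.4% of SAP libraries, and this class had the highest epithelial mean of Relb, Nfkbia, Nfkbiz, Bcl3, Tnfaip3 and Birc3. Each library was also reweighted to 1 common mix of the 16 classes with at least 10 nuclei in every library. This left out B-like, neutrophil-like, mesothelial-like and fat-like nuclei. The log2 fold change of Nfkbia was then 0.51 (edgeR, unadjusted p = 0.0279) and that of Tnfaip3 0.78 (edgeR, unadjusted p = 0.0377). With nuclei of at most 1% mitochondrial UMIs, which left 384 nuclei of SAP replicate 1, these values were 0.41 (edgeR, unadjusted p = 0.152) and 0.79 (edgeR, unadjusted p = 0.11), and the groups of both overlapped. Between CON replicate 2 and SAP replicate 1, the libraries with barcodes under 1000 UMIs, the log2 ratio of Tnfaip3 was 1.00, and among the other 4 libraries it was 1.06. For Nfkbia these ratios were 0.96 and 0.64. Bcl3 was the 1 member whose ratios differed in sign, with -0.38 and 0.83.

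In epithelial nuclei all 9 members lay above 0 as well, with a median log2 fold change of 0.50 against 0.0040 for all 17338 genes, of which 50.3% lay above 0 and 0% were called. Nfkbia measured 80.5, 73.4 and 70.7 CPM in CON and 133, 149 and 96.0 CPM in SAP. The lowest SAP library was above the highest CON library, as for 6.47% of all genes (log2 fold change 0.75, SE 0.22, unadjusted p = 0.00955, adjusted p = 0.408, edgeR). Tnfaip3 measured 5.67, 6.81 and 10.0 CPM in CON and 14.1, 18.1 and 22.6 CPM in SAP. The groups were again apart (log2 fold change 1.29, SE 0.34, unadjusted p = 0.00546, adjusted p = 0.408, edgeR). These were the members with an unadjusted p under 0.05, found with a higher SAP level in 4.91% and with a lower one in 6.18% of all genes. DESeq2, the alternative test, called Tnfaip3 here (log2 fold change 1.32, SE 0.38, adjusted p = 0.0371), where it called 1.69% of all genes. In the 4 sums of nuclei and all settings tried, this was the single call of a member.

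With enterocyte-like nuclei left out, a choice made after seeing the data, Nfkbia in the remaining epithelium measured 69.8, 66.4 and 54.4 CPM in CON and 82.4, 116 and 67.2 CPM in SAP. SAP replicate 3 was then inside the CON range (log2 fold change 0.48, SE 0.25, unadjusted p = 0.092, edgeR). Tnfaip3 measured 4.73, 5.74 and 7.06 CPM in CON and 8.33, 14.6 and 14.8 CPM in SAP. Its groups stayed apart (log2 fold change 1.12, SE 0.35, unadjusted p = 0.0138, adjusted p = 0.483, edgeR).

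In immune nuclei 8 of the 9 members lay above 0, and Birc3 was at -0.0081 (edgeR, unadjusted p = 0.981). The members' median was 0.32, against 0.017 for 14451 genes, of which 51.8% lay above 0 and 0% were called. Nfkbia measured 58.7, 70.2 and 64.1 CPM in CON and 303, 107 and 73.9 CPM in SAP. All SAP libraries exceeded CON, as for 4.05% of all genes, with SAP replicate 1 far above the rest (log2 fold change 1.26, SE 0.48, unadjusted p = 0.0279, adjusted p = 0.898, edgeR). Nfkbia was the 1 member with an unadjusted p under 0.05, found with a higher SAP level in 2.79% and with a lower one in 2.71% of all genes. In SAP replicate 1 the 6 neutrophil markers summed to 13975 CPM of immune nuclei, against 6.39 to 412 CPM in CON libraries and 11.8 and 668 CPM in the other SAP libraries. All 6 were higher on average in SAP, and none was at 0 in all libraries.

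Neutrophil-like nuclei numbered 104, with 28 in SAP replicate 1 and 42 in SAP replicate 3. In the libraries with at least 10 of them, Nfkbia stood at 183 CPM in CON replicate 3, 1331 CPM in SAP replicate 1 and 579 CPM in SAP replicate 3, scaled by library totals. With these nuclei left out, again after seeing the data, Nfkbia in immune nuclei measured 58.4, 68.6 and 63.3 CPM in CON and 65.8, 107 and 58.8 CPM in SAP. The groups then overlapped (log2 fold change 0.30, SE 0.29, unadjusted p = 0.319, edgeR). The log2 fold change of Tnfaip3 in immune nuclei was 0.32 with them and -0.035 without them.

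**Figure D2:**
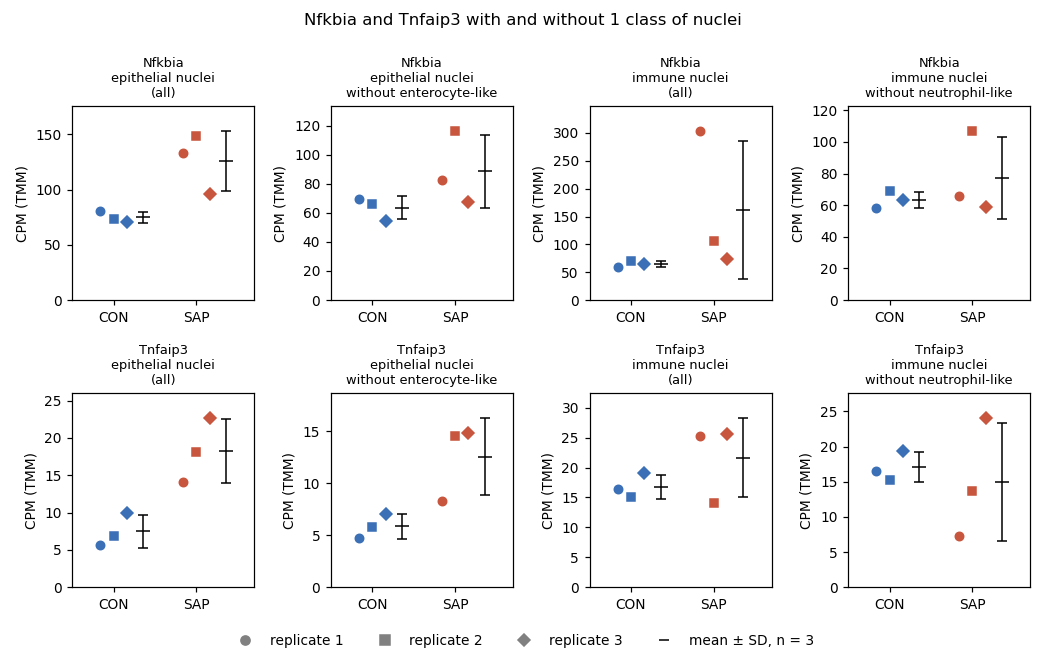
TMM-normalized CPM (vertical axis, from 0) of Nfkbia and Tnfaip3 in epithelial and immune nuclei, with all classes and with 1 class left out, in 3 CON and 3 SAP libraries, with the mean ± SD (n = 3). Nfkbia of immune nuclei in SAP replicate 1 goes from 303 to 65.8 CPM without neutrophil-like nuclei, and epithelial Tnfaip3 stays apart between the groups without enterocyte-like nuclei.

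In stromal nuclei (muscle, fibroblast, vessel, nerve, mesothelial and fat classes) all 9 members lay above 0, with a median of 0.57 against 0.012 for 12243 genes, of which 51.2% lay above 0 and 0% were called. Nfkb2 passed the filter on low counts here through the SAP libraries, its CON levels alone being too low. With Nfkb2, Relb, Nfkbia and Nfkbiz, 4 of 9 members were higher in every SAP library, against 7.03% of all genes. With nuclei of at most 1% mitochondrial UMIs this held for 1 of 8 members, Relb, against 3.6% of all genes, and 0 had an unadjusted p under 0.05. Relb measured 92.0, 95.4 and 98.4 CPM in CON and 161, 227 and 135 CPM in SAP. The CON libraries formed a narrow band below all SAP libraries (log2 fold change 0.87, SE 0.25, unadjusted p = 0.00667, adjusted p = 0.338, edgeR). Nfkbia measured 72.1, 61.5 and 59.5 CPM in CON and 99.3, 149 and 89.8 CPM in SAP. No SAP library reached down to CON (log2 fold change 0.80, SE 0.27, unadjusted p = 0.0146, adjusted p = 0.406, edgeR). These were the members with an unadjusted p under 0.05, found with a higher SAP level in 4.48% and with a lower one in 4.56% of all genes.

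Nfkb2, whose product p52 pairs with RelB, measured 20.6, 6.47 and 14.5 CPM in CON and 33.1, 22.4 and 25.5 CPM in SAP stromal nuclei. The lowest SAP library lay just above the highest CON library (log2 fold change 0.83, SE 0.43, unadjusted p = 0.0841, edgeR). The values of Nfkb2 rested on few UMIs, 30, 4 and 38 in CON and 8, 14 and 66 in SAP. Given its way through the filter on low counts, the test of Nfkb2 in these nuclei is a description only. Nfkbiz measured 86.5, 58.2 and 90.4 CPM in CON and 91.0, 104 and 111 CPM in SAP, with a gap between the groups smaller than the spread within CON. In these nuclei 6 pericyte markers summed to 526 to 1082 CPM in SAP against 209.8 to 412 CPM in CON, neutrophil markers to 57.9 to 842 against 0 to 8.29 CPM, and fat markers to 10.7 to 85.9 against 90.5 to 213 CPM. Their part in the members' values was not tested. With classes reweighted to a common mix, which left out mesothelial-like and fat-like nuclei, the log2 fold change was 0.83 for Relb and 0.79 for Nfkbia.

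The effect of SAP was compared between compartments within the same rats, in a joint fit of both compartments. No member was called for a difference between immune and epithelial nuclei, where 0.0282% of 17727 genes were called, or between stromal and epithelial nuclei, where 0.0601% of 16642 genes were called. Immune minus epithelial, the difference in log2 fold change of Tnfaip3 was -1.18 (SE 0.35, unadjusted p = 0.00275, adjusted p = 0.624, edgeR). It was the 1 member with an unadjusted p under 0.05 there, against 5.35% of all genes, and in the stromal comparison 0 members had one, against 7.64%. Stromal minus epithelial differences were 0.33 for Relb (SE 0.21, edgeR, adjusted p = 0.787) and 0.63 for Nfkb2 (SE 0.40, edgeR, adjusted p = 0.787).

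The 16 classes with at least 10 nuclei in every library were also fitted one by one. B-like, neutrophil-like, mesothelial-like and fat-like nuclei were too few, and in NAC-like nuclei, a class led by neuronal genes, no member passed the filter on low counts. The other 15 classes gave 104 tests of members, of which 0 were called, where 0.0066% of all 136457 tests were called (0 members and 0.044% with the replicate block). The log2 fold change was above 0 in 94 of the 104, against 50.3% of all tests. Groups were apart with SAP higher in 19 of the 104, against 5.75% of all tests, and with SAP lower in 0, against 7.57%. With nuclei of at most 1% mitochondrial UMIs, which left 9 classes, SAP was higher without overlap in 4 of 68 tests of members, near the 4.96% of all tests. An unadjusted p under 0.05 was found in 12 of the 104, all with SAP higher, against 3.91% of all tests. Some of these tests passed the filter on low counts only with SAP libraries added, the CON levels alone being too low. Among both the 12 and the 19 these are Tnfaip3 in TA-like (transit-amplifying) and Relb in endothelial-like nuclei. Nfkbia in tuft-like and in macrophage-like nuclei is also in both. Among the 12 there is also Tnfaip3 in the unnamed cluster 6. Among the 19 there are also Tnfaip3 in the unnamed cluster 2 and Nfkbia and Nfkbiz in endothelial-like nuclei. These counts are a description only. The classes share the same 6 rats and are not independent of each other. Without SAP replicate 2 the count above 0 was 79 of 108, and without SAP replicate 3 it was 82 of 103.

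For Relb the groups were apart in 4 of 15 classes. In endothelial-like nuclei it measured 103, 75.3 and 131 CPM in CON and 261, 463 and 173 CPM in SAP. All SAP values lay above the CON values (log2 fold change 1.40, SE 0.45, unadjusted p = 0.00938, adjusted p = 0.975, edgeR). They rest on few UMIs, since this class held 29 nuclei in CON replicate 2 and 18 in SAP replicate 1. Over all stromal nuclei of these libraries Relb had 59 and 39 UMIs. The CON levels of Relb in endothelial-like nuclei alone were too low for the filter on low counts, which it passed through the SAP libraries. Given that filter, its test in this class is a description only. Fibroblast-like nuclei gave 124, 96.9 and 134 CPM in CON and 263, 348 and 201 CPM in SAP (log2 fold change 1.13, SE 0.34, unadjusted p = 0.00683, adjusted p = 0.718, edgeR). The value of SAP replicate 1 there came from 25 nuclei. Macrophage-like nuclei gave 154, 179.9 and 156 CPM in CON and 714, 324 and 226 CPM in SAP, the first SAP value resting on 14 UMIs (log2 fold change 1.14, SE 0.43, unadjusted p = 0.0217, adjusted p = 1, edgeR). The fourth class was SMC-like (smooth muscle) nuclei, with a log2 fold change of 0.49. In enterocyte-like nuclei it was 0.029.

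Nfkbia had groups apart in 8 of 15 classes and a log2 fold change above 0 in 14. Tuft-like nuclei, the chemosensory cells of the epithelium, gave 30.7, 59.3 and 55.0 CPM in CON and 82.1, 139.7 and 77.6 CPM in SAP (log2 fold change 1.12, SE 0.39, unadjusted p = 0.0143, adjusted p = 0.407, edgeR). SMC-like nuclei gave 67.4, 66.7 and 65.1 CPM in CON and 114, 164 and 90.8 CPM in SAP (log2 fold change 0.87, SE 0.30, unadjusted p = 0.0155, adjusted p = 0.279, edgeR). In both classes the lowest SAP library was above all CON libraries. The tuft-like class held 83 and 86 nuclei in CON replicates 1 and 2 and 66 in SAP replicate 1. In tuft-like, macrophage-like and endothelial-like nuclei the CON levels of Nfkbia alone were too low for the filter on low counts. Given that filter, its tests in those classes are a description only. Enterocyte-like nuclei gave 142, 122 and 155 CPM in CON and 254, 166 and 213 CPM in SAP, also without overlap (log2 fold change 0.59, SE 0.24, unadjusted p = 0.0377, adjusted p = 0.751, edgeR). Paneth-like nuclei, at -0.003, and T-like nuclei, at 0.17, had the lowest log2 fold changes of Nfkbia.

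Tnfaip3 passed the filter in 7 classes. In TA-like (transit-amplifying) nuclei it measured 2.71, 1.87 and 6.53 CPM in CON and 11.7, 16.6 and 16.8 CPM in SAP, from 70 UMIs in all. Its CON levels alone were too low for the filter on low counts, which it passed through the SAP libraries. The groups were apart, and this log2 fold change was the highest of any member in any class (log2 fold change 2.02, SE 0.55, unadjusted p = 0.00559, adjusted p = 0.396, edgeR). Given that filter, this first place is a description only. In enterocyte-like nuclei, with 454 UMIs, it measured 11.0, 13.8 and 24.7 CPM in CON and 27.9, 19.8 and 53.7 CPM in SAP. SAP replicate 2 lay within the CON range there (log2 fold change 1.02, SE 0.47, unadjusted p = 0.0594, adjusted p = 0.753, edgeR). In T-like nuclei the log2 fold change was -0.30 (SE 0.57).

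Nfkbiz in enterocyte-like nuclei measured 65.9, 74.3 and 126 CPM in CON and 155, 136 and 181 CPM in SAP. The groups were apart (log2 fold change 0.82, SE 0.30, unadjusted p = 0.0227, adjusted p = 0.751, edgeR). The enterocyte-like class joined clusters 4, 7 and 11, and cluster 7, led by Apoa4, held 22.5, 25.7 and 39.2% of its CON nuclei and 41.9, 41.5 and 43.2% of its SAP nuclei. Cluster 4, led by Slc5a12, took 50.9, 62.2 and 52.6% of the CON and 40.5, 45.6 and 45.3% of the SAP nuclei of the class, and the part of this mix in the enterocyte-like values of Nfkbiz, Nfkbia and Tnfaip3 was not tested. Bcl3 had groups apart in cluster 14, an unnamed cluster. It was placed with the immune nuclei by its highest marker scores, 0.83 for B cells and 0.77 for dendritic cells, though its leading genes are no immune markers. Bcl3 measured 65.3, 52.0 and 90.5 CPM in CON and 148, 167 and 122 CPM in SAP there (log2 fold change 0.95, SE 0.37, unadjusted p = 0.0209, adjusted p = 0.811, edgeR). Cluster 14 held only 39 and 31 nuclei in CON replicates 1 and 2 and 21 in SAP replicate 1. In Paneth-like nuclei Bcl3 was at -0.54, its lowest log2 fold change. The Paneth-like class joined cluster 9, led by Gfra4, and cluster 15, led by the defensin gene RatNP-3b. Cluster 9 held 375, 347 and 387 CON and 80, 87 and 147 SAP nuclei. Cluster 15 held 415, 29 and 28 CON and 70, 33 and 31 SAP nuclei. The part of this mix in the members' Paneth-like values was not tested. Nfkb1 was above 0 in 15 of 15 classes, by at most 0.50, with groups apart in 0. Nfkb2 was above 0 in 5 of 8 classes and Birc3 in 11 of 14, and neither had an unadjusted p under 0.05 in any.

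**Figure D3:**
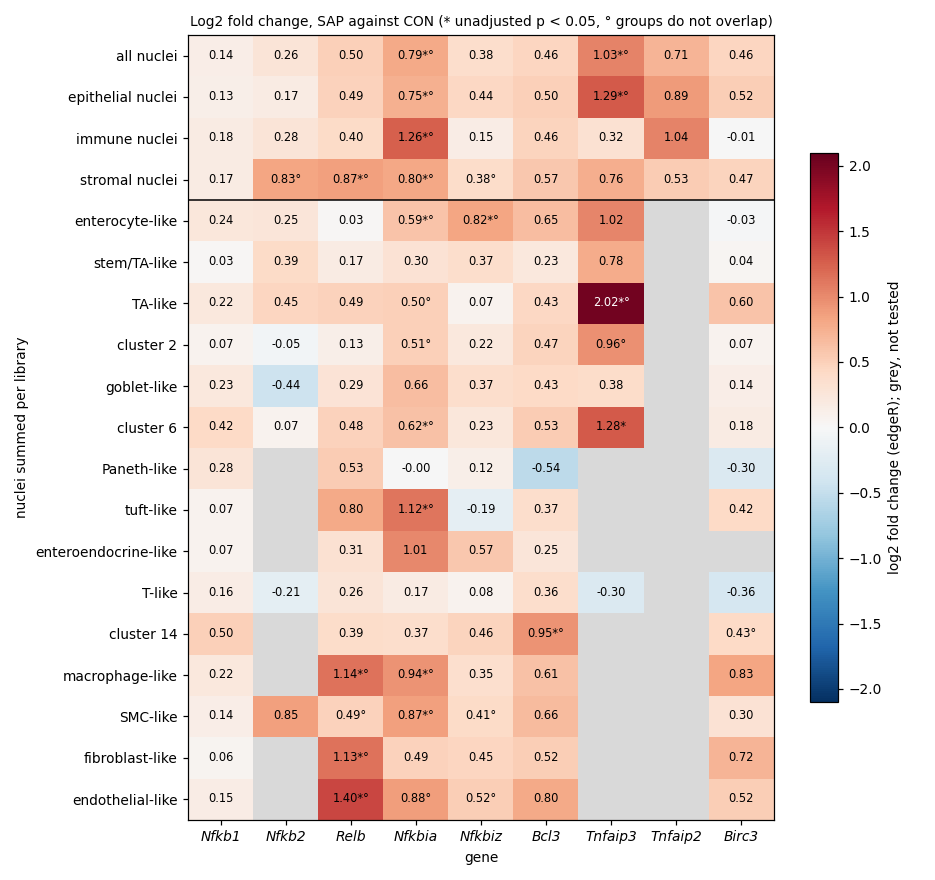
Log2 fold change of SAP over CON (colour and number, edgeR) of each NF-κB gene in the 4 sums of nuclei and in each class, grey where it was not tested, with marks for an unadjusted p under 0.05 and for groups that do not overlap. Of 104 class values 94 are above 0, the highest being 2.02 for Tnfaip3 in TA-like nuclei. There its CON levels alone were too low for the filter on low counts.

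Each member had its own order of levels over the 20 classes, given as mean CPM scaled by library totals over the libraries with at least 10 nuclei, as a description with no test. In every order the mean ± SD intervals overlapped in all 19 pairs of neighbouring classes. Nfkb1 ran from 213 ± 46.1 CPM (SD, n = 6) in macrophage-like to 95.5 ± 48.2 CPM (SD, n = 6) in Paneth-like nuclei, with B-like, neutrophil-like and T-like nuclei next to the top. Relb was also led by macrophage-like nuclei, with 238 ± 173 CPM (SD, n = 6), where SAP replicate 1 alone gave 575 CPM. Enterocyte-like nuclei came next with 193 ± 43.6 CPM (SD, n = 6). Without that library they came first with 201 CPM, and the macrophage-like mean was 171 CPM. They also led CON libraries alone, where the means were 192 and 134 CPM. Fat-like nuclei were last with 62.0 ± 39.7 CPM (SD, n = 4). The first place of Nfkb2, in neutrophil-like nuclei with 43.8 ± 65.8 CPM (SD, n = 3), rested on 9 UMIs and was lost without SAP replicate 1, with 6.03 CPM left.

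Nfkbia ran from 698 ± 583 CPM (SD, n = 3) in neutrophil-like to 30.6 ± 26.7 CPM (SD, n = 4) in fat-like nuclei. Every library of the neutrophil-like class was above every library of 17 other classes, and enterocyte-like nuclei came second with 174 ± 47.0 CPM (SD, n = 6). The neutrophil-like mean joined 1 CON and 2 SAP libraries. Without SAP replicate 1 it was 381 CPM, and CON replicate 3 had 183 CPM in neutrophil-like and 168 CPM in enterocyte-like nuclei. Bcl3 had epithelial classes in its first 4 places, led by enterocyte-like nuclei with 183 ± 75.7 CPM (SD, n = 6) and the unnamed cluster 2 with 145 ± 45.1 CPM (SD, n = 6). In CON libraries alone neutrophil-like nuclei led Bcl3 with 183 CPM, from CON replicate 3 only. Paneth-like nuclei followed with 169 CPM and enterocyte-like nuclei came after them with 145 CPM. Nfkbiz had mesothelial-like nuclei first with 157 ± 46.7 CPM (SD, n = 3), from 50 UMIs, and T-like nuclei second with 129.8 ± 24.9 CPM (SD, n = 6).

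Birc3 had neutrophil-like nuclei first with 169 ± 42.8 CPM (SD, n = 3), wholly above 16 other classes, and enterocyte-like nuclei second with 123 ± 29.7 CPM (SD, n = 6). Stem/TA-like nuclei, of the crypt, were near the bottom with 22.8 ± 9.57 CPM (SD, n = 6). Tnfaip3 had neutrophil-like nuclei first with 62.3 ± 54.7 CPM (SD, n = 3), from 21 UMIs and with 0 CPM in the CON library, then fat-like nuclei with 39.5 ± 43.7 CPM (SD, n = 4), from 8 UMIs. Macrophage-like nuclei, with 30.0 ± 7.18 CPM (SD, n = 6), came next and led in CON libraries alone. Tnfaip3 stood at 25.8 ± 17.3 CPM (SD, n = 6) in enterocyte-like and at 7.10 ± 3.83 CPM (SD, n = 6) in stem/TA-like nuclei. Tnfaip2 was led by fibroblast-like nuclei with 23.7 ± 25.3 CPM (SD, n = 6), from 59 of its 256 UMIs, and 0 of its UMIs were in NAC-like nuclei. Neutrophil-like nuclei were first for Tnfaip2 without CON replicate 2 or without SAP replicate 3.

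**Figure D4:**
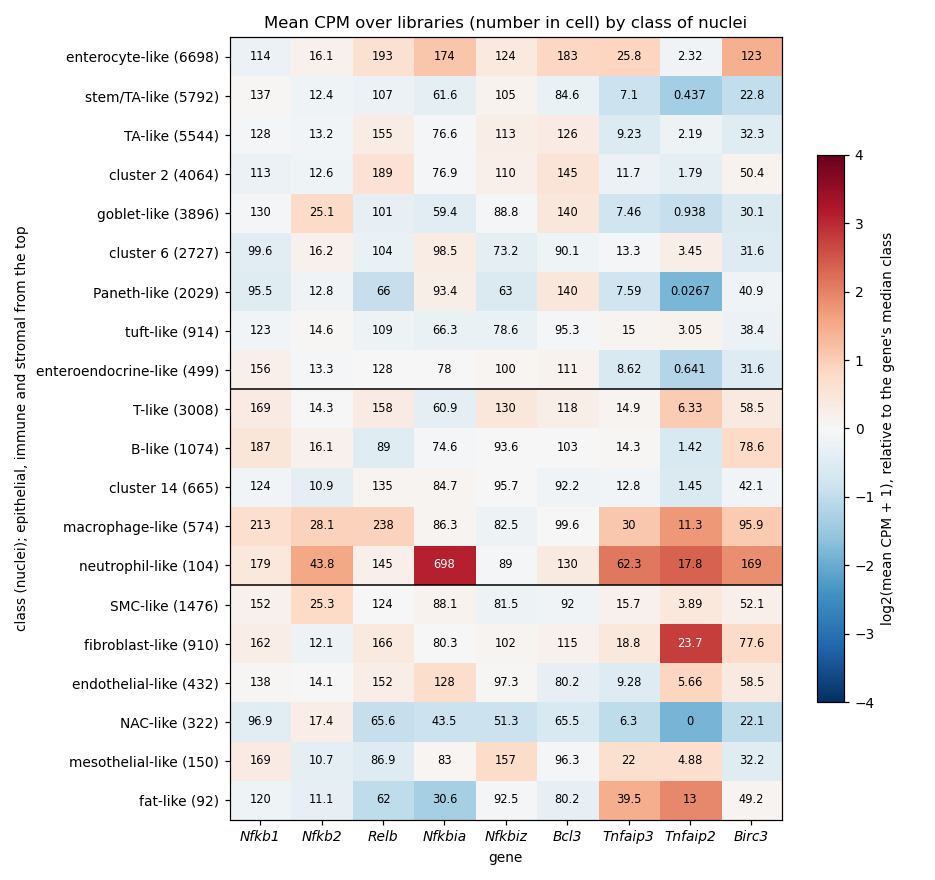
Mean CPM over libraries (number) of each NF-κB gene in 20 classes of nuclei, grouped by compartment, with the colour relative to the median class of the gene. Nfkbia in neutrophil-like nuclei (698 CPM) is 8.81 times the median class of this gene, its mean being 381 CPM without SAP replicate 1, and stem/TA-like nuclei are low in Tnfaip3 and Birc3.

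Genes of like pattern were sought over the 20 class means among 13578 genes with at least 20 CPM in some class. The classes share libraries and stray RNA, so Pearson's r is descriptive. The nearest to Nfkbia were Serpinb1a (r = 0.93) and Isg15 (r = 0.91), and the nearest to Relb were Ctss (r = 0.86) and Slc12a7 (r = 0.85). Tnfaip3 was closest to Plin2 (r = 0.86) and Hif1a (r = 0.85), Birc3 to Nedd9 (r = 0.86) and Slfn4 (r = 0.84), and Bcl3 to Trim30d (r = 0.84) and Plac8 (r = 0.83). Nfkb1 was closest to Vps54 (r = 0.85) and Dipk1a (r = 0.83), Nfkb2 to Clec4b2 (r = 0.83) and Morf4l1 (r = 0.82), Nfkbiz to Them7 (r = 0.80) and Slc35e2b (r = 0.80), and Tnfaip2 to Slc43a3 (r = 0.83) and LOC100910973 (r = 0.80). Among the members, Tnfaip3 was nearest to Tnfaip2 (r = 0.80) and Birc3 (r = 0.76).

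The wider pathway was read in 3 lists of 78 further genes. These lists, too, were chosen with earlier results known, so their counts beside the shares of all genes are a description only. Over all nuclei 74 were tested, 0 were called and 57 lay above 0, against 52.2% of all genes. The median log2 fold change was 0.30. Groups were apart with SAP higher in 11, against 4.9% of all genes, and lower in 1, against 9.06%. The medians were 0.15 for 13 subunits, IκB proteins and kinases, 0.27 for 35 receptors, adaptors and ubiquitin factors, and 0.73 for 26 other target genes. An unadjusted p under 0.05 was found for 0 of the first list, for 2 of the second, both with a higher SAP level, and among the target genes for 8 with a higher and 1 with a lower SAP level, where the shares of all genes were 3.97% and 4.47%. DESeq2 called 4 of the 74, Cxcl1, Cxcl2, Sod2 and Duox2, and 1.12% of all genes.

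Lcn2, the iron-binding antimicrobial protein lipocalin 2, measured 0.668, 0.256 and 7.39 CPM in CON and 74.2, 23.0 and 18.0 CPM in SAP. Each SAP library was above all CON libraries (log2 fold change 3.74, SE 1.13, unadjusted p = 0.0105, adjusted p = 0.545, edgeR). The CON levels of Lcn2 alone were too low for the filter on low counts, so this test is a description only. Sod2, the mitochondrial superoxide dismutase, measured 23.6, 9.13 and 16.7 CPM in CON and 78.9, 33.9 and 43.1 CPM in SAP, again without overlap (log2 fold change 1.64, SE 0.45, unadjusted p = 0.00597, adjusted p = 0.545, edgeR). Duox2, an epithelial NADPH oxidase, went the other way, with 141, 181 and 98.9 CPM in CON and 56.3, 51.1 and 58.1 CPM in SAP. The SAP libraries lay close together below CON (log2 fold change -1.34, SE 0.27, unadjusted p = 0.000968, adjusted p = 0.545, edgeR). In CON, Duox2 had a mean of 131 ± 35.7 CPM (SD, n = 3) in immune and 145 ± 34.6 CPM (SD, n = 3) in epithelial nuclei.

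In epithelial nuclei 71 list genes were tested, 0 were called and 52 lay above 0, against 50.3% of all genes. In every SAP library 11 were higher, against 6.47% of all genes, and 2 were lower, against 12.1%. Ltb, which encodes lymphotoxin β, a ligand of the non-canonical branch, measured 5.97, 6.72 and 7.36 CPM in CON and 15.3, 11.2 and 23.6 CPM in SAP. SAP libraries were all higher (log2 fold change 1.32, SE 0.35, unadjusted p = 0.00587, adjusted p = 0.408, edgeR). The 7 B cell markers summed to 11.5 to 226 CPM of these nuclei in SAP and 4.86 to 77.1 CPM in CON, and their part in Ltb was not tested. Lcn2 had a log2 fold change of 3.55 (SE 1.05), Duox2 of -1.24 (SE 0.26) and Malt1, a signalling protease of lymphocytes, of -0.22 (SE 0.19). DESeq2 called Duox2, Lcn2 and Ltb among the list genes. For Lcn2 the CON levels alone were again too low for the filter on low counts.

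In immune nuclei 52 of 68 list genes lay above 0, against 51.8% of all genes. In every SAP library 5 were higher, against 4.05% of all genes, and 2 were lower, against 6.41%. Lcn2 measured 0.481, 0 and 4.93 CPM in CON and 193, 12.5 and 14.3 CPM in SAP. Ier3, an immediate early gene, measured 15.9, 11.3 and 10.6 CPM in CON and 75.8, 18.2 and 41.8 CPM in SAP. SAP replicate 1, the library with the high neutrophil marker sum, was the highest for both. The CON levels of Lcn2, which is among the 5, were again too low alone for the filter on low counts. Duox2 (log2 fold change -1.62, SE 0.28) and Tab1, an adaptor of the kinase TAK1 (-0.33, SE 0.26), were lower without overlap. DESeq2 called Duox2 among the list genes (log2 fold change -1.60, SE 0.37, adjusted p = 0.0095), and 0.298% of all genes.

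In stromal nuclei 44 of 55 list genes lay above 0, against 51.2% of all genes. In every SAP library 13 were higher, against 7.03% of all genes, and 1 was lower, against 8.95%. Cxcl1, a neutrophil-attracting chemokine, measured 2.75, 1.62 and 5.72 CPM in CON and 174, 33.6 and 42.6 CPM in SAP. All SAP values were far above the CON values (log2 fold change 4.21, SE 0.74, unadjusted p = 0.000264, adjusted p = 0.168, edgeR). The CON levels of Cxcl1 alone were too low for the filter on low counts, which it passed through the SAP libraries. Given that filter, its tests in these nuclei are a description only. Lcn2 measured 2.06, 0 and 31.3 CPM in CON and 372, 274 and 75.5 CPM in SAP, and Duox2 had a log2 fold change of -1.29 (SE 0.28). The CON levels of Lcn2 alone were too low for this filter as well, and both Cxcl1 and Lcn2 are among the 13. DESeq2 called Cxcl1, Sod2 and Il1r1, an interleukin-1 receptor, where it called 0.956% of all genes.

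**Figure D5:**
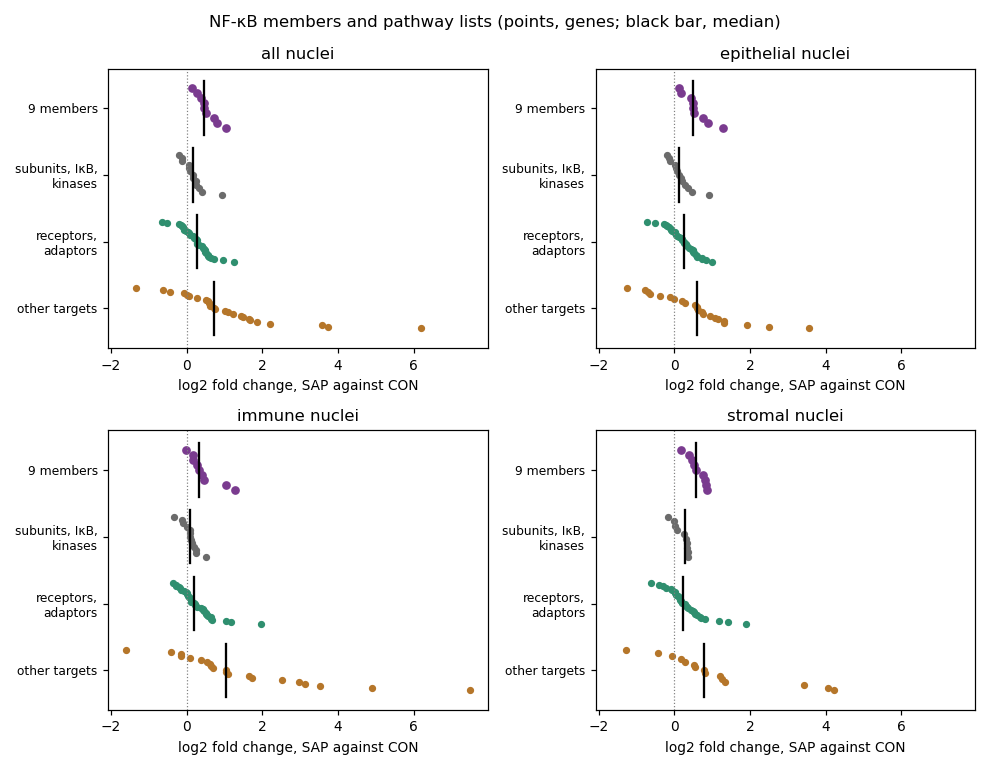
Log2 fold change of SAP over CON (edgeR) in the 4 sums of nuclei for the 9 NF-κB members and for the tested genes of 3 pathway lists, each point a gene, with the medians marked. The members' medians are 0.46, 0.50, 0.32 and 0.57 in all, epithelial, immune and stromal nuclei.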

How the data were processed

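The deposited tables hold raw UMI counts per gene and nucleus, which the authors made with dnbc4tools from DNBelab C V3.0 libraries. The submitters' notes name the build mRatBN7.2 and Seurat 4.3.0, and the sources used here do not name the aligner run within dnbc4tools. Nuclei were filtered as stated above and clustered with scanpy 1.11.5 (2000 variable genes, 30 components, a reimplemented Harmony with theta 1, Leiden at a resolution of 0.8), and named where a marker score of at least 0.5 led the next by 0.5. An exception was the stem/TA-like cluster, which got a joint name since its stem score of 1.48 led its TA score of 1.14 by less. These clustering and naming settings were chosen after clusters and markers were seen. Doublets were kept, and removing the 5% of nuclei per library with the highest Scrublet scores was an alternative. Counts were summed per library and tested with edgeR 4.0.16 (low-count filter, TMM, quasi-likelihood test, Benjamini-Hochberg adjustment over all genes tested), checked on simulated data. DESeq2 1.42.0, other filters, reweighting, left-out replicates, a replicate block and, added after seeing the data, 6 sums and class means over fewer libraries were alternatives. Each rat is 1 replicate. Both groups carry replicate numbers 1 to 3, and deviations of same-numbered libraries correlated at 0.577, 0.183 and 0.524 over all nuclei (the pairing limit was 0.1 in every pair) and at 0.587, 0.0889 and 0.446 over epithelial nuclei. The members and gene lists were chosen with earlier results of these data known. Besides the members, list genes were named if called, or as the 2 per direction with the largest change among those without overlap and at least 10 CPM. Libraries of one group differed beyond sampling noise.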

Additional observations from a re-analysis of the deposited data

Results flagged for a closer look

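The effect of SAP on Tnfaip3 was compared between compartments of the same rats. Its log2 fold change was 1.29 in epithelial and 0.32 in immune nuclei, and the interaction was -1.18 (SE 0.35, unadjusted p = 0.00275, edgeR), which did not pass the adjustment over 17727 genes (adjusted p = 0.624). It was picked out by its unadjusted p, which 5.35% of all genes shared. The interaction came from a joint fit of both compartments with its own filter and normalization. It therefore need not equal the difference of the separate log2 fold changes. Without neutrophil-like nuclei the immune log2 fold change of Tnfaip3 was -0.035, and its immune value in SAP replicate 1 rested on 8 UMIs.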

How the results depend on the processing

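Counts of called members were 0 in every fit by edgeR and in every fit that left out 1 replicate. DESeq2 called 1 member in epithelial nuclei and, of the pathway genes, 4 in all, 3 in epithelial, 1 in immune and 3 in stromal nuclei. Of 577 alternative values of the members' log2 fold changes, 557 kept their direction and side of the threshold, 1 passed it (Tnfaip3 in the epithelium by DESeq2) and 19 changed sign. With 1 replicate left out in turn, Relb ranged over -0.0042 to 0.80 in all, -0.0064 to 0.75 in epithelial and -0.073 to 0.72 in immune nuclei, its lowest values being those without SAP replicate 2. Tnfaip2 ranged over -0.23 to 1.14 in all and -0.41 to 1.29 in epithelial nuclei, lowest without SAP replicate 3. In immune nuclei the ranges were -0.069 to 0.35 for Nfkb1, -0.024 to 0.27 for Nfkbiz and -0.24 to 0.36 for Birc3. Birc3 there was also 0.012 by DESeq2, 0.012 with DESeq2's size factors, 0.087 at 1% mitochondrial UMIs, 0.013 at a clustering resolution of 0.4 and 0.066 without B-like nuclei. Without neutrophil-like nuclei Nfkb2 was -0.074 and Tnfaip3 -0.035. With classes reweighted, which also left out neutrophil-like as well as B-like nuclei, Tnfaip3 was -0.012. The causes were not tested. At 1% mitochondrial UMIs 0 members had an unadjusted p under 0.05 in any sum of nuclei. Without a filter on low counts edgeR called 41 genes in immune and 384 in stromal nuclei, where it called 0 with the filter. No member was among them, and 2 pathway genes in immune (Duox2 and Ptgs2) and 5 in stromal nuclei (Cxcl1, Cxcl2, Duox2, Il1r1 and Sod2) were.

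With the replicate block 0 members were called in any fit. The log2 fold change over all nuclei was then 0.74 for Nfkbia and 1.04 for Tnfaip3, and calls over all genes went from 0 to 4 in immune nuclei and from 9 to 60 over the classes. Members with an unadjusted p under 0.05 went from 2 to 3 in epithelial nuclei, with Bcl3 at 0.47 (edgeR, unadjusted p = 0.0361, adjusted p = 0.356), and from 2 to 3 in stromal nuclei, with Nfkb2 at 0.98 (edgeR, unadjusted p = 0.034, adjusted p = 0.394). For Nfkb2 in stromal nuclei the CON levels alone were too low for the filter on low counts, so its test is a description only.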
